A study of Bos taurus with 18 samples.

Results

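Cadherins, claudins and connexins are the proteins of cell-to-cell junctions, and 53 genes of these families were followed through 4 compartments of the bovine ovary. They were all genes whose single symbol in the array's annotation was CDH, CLDN, GJA, GJB or GJC followed by a number, without the endothelial genes CDH5 and CLDN5, and they made up 53 of 18010 genes with a single symbol: 22 cadherins, 20 claudins and 11 connexins. Total RNA was measured on 18 single-colour expression arrays. Theca was dissected from healthy small antral follicles under 5 mm in diameter (6 arrays, each from 1 follicle of 1 animal). Laser dissection of frozen cortex, sectioned at 10 µm and stained with cresyl violet, gave tunica albuginea (dense collagen beneath the surface epithelium), stroma close to follicles and interstitial stroma (4 arrays each, each a pool of tissue from different animals). All ovaries came from non-pregnant Bos taurus cows at an abattoir, and age and cycle stage are not stated. Theca RNA was prepared with another kit than RNA of the laser-captured tissue, so compartment, collection, pooling and kit cannot be told apart in any difference between theca and the rest.

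Cadherins are calcium-dependent adhesion proteins that bind their like on the neighbouring cell and are anchored to actin inside the cell by catenins. Claudins are the strand-forming membrane proteins of tight junctions and set what passes between cells, chiefly in epithelia and endothelia. Connexins assemble into gap junction channels through which small molecules pass from cell to cell; in the ovary they couple granulosa cells to each other and to the oocyte.

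The values are log2 signals, rounded by the authors to steps of 0.1, and every array had a median of 4.1. No detection call came with them, so a value near or below 4.1 may be background, and a difference from such a group may understate the change. Quantile normalization removes any change common to most genes. These are bulk samples, in which fewer cells of a type and less RNA per cell cannot be told apart. As a check of the compartments, the steroidogenic theca genes INSL3, CYP17A1, LHCGR, CYP11A1 and HSD3B1 averaged 8.9 to 10.06 in theca arrays and 2.88 to 3.4 in the laser-captured arrays, and the stromal fibroblast list (PDGFRA, DCN, LUM, COL1A1 and COL3A1) averaged 8.98 or more in every array. Leukocyte markers were higher in theca for 4 of 7 and lower for none, and smooth muscle and pericyte markers higher for 3 and lower for 6 of 9. Among all clusters 19.6% were higher and 22.2% lower in theca. Differences were tested with limma over all 26773 transcript clusters of the array, and an adjusted p (Benjamini-Hochberg over all clusters) below 0.05 is called a change. Nothing says that the laser-captured pools of a compartment came from separate animals, so p-values measure the spread between these arrays.

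Most members were dim. A total of 33 of the 53 had a mean below 4.1 in all 4 compartments, among them CDH1, which encodes the epithelial cadherin (2.78 in theca, 2.73 in tunica albuginea, 2.93 in stroma close to follicles and 2.75 in interstitial stroma). At least 1 compartment mean reached 4.1 for 20 members (37.7%), against 57.9% of all clusters. The brightest by mean over all arrays were GJA1 (9.94), the main connexin of granulosa and many connective tissue cells, and CDH11 (8.56), the cadherin of mesenchymal cells. CDH3 (6.47), GJC1 (6.47), CDH2 (5.56), CDH6 (5.45), CLDN1 (5.11), GJC3 (4.51), CLDN11 (4.35) and GJA5 (4.14) followed. These are signals of different probe sets, so their order is a description of the arrays and not of transcript abundance.

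**Figure D1:**
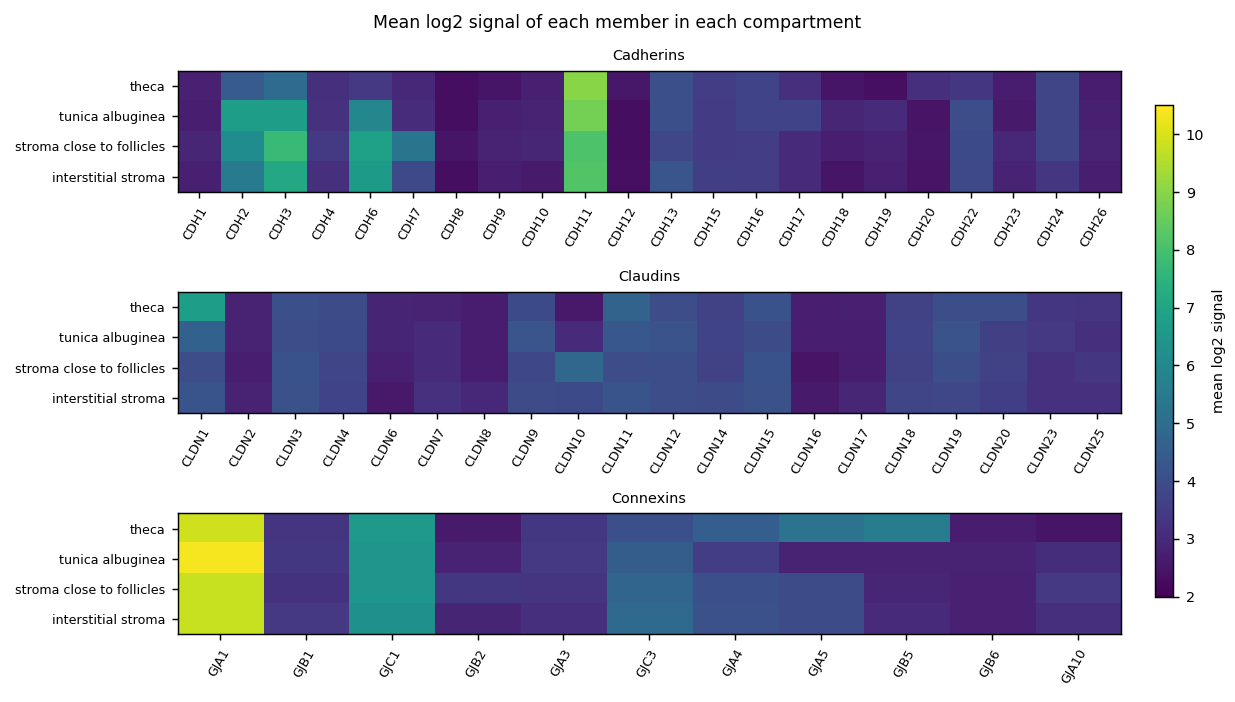
Mean log2 signal (colour) of all 53 members (columns) in theca, tunica albuginea, stroma close to follicles and interstitial stroma (rows, 6, 4, 4 and 4 arrays). GJA1 and CDH11 are bright in all 4 rows, CDH2, CDH3 and CDH6 are darker in theca than in the other rows, and CLDN1 and GJB5 are brighter in theca.

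Theca differed from the mean of the laser-captured compartments in 19 of the 53 members (35.8%), while 41.9% of all clusters differed. Of these members 8 were higher and 11 lower, against 19.6% and 22.2% of all clusters. The median difference of the members was -0.03 log2 units and that of all clusters -0.04. The families did not share a direction: cadherins were higher for 2 and lower for 7 of 22, claudins higher for 3 and lower for 1 of 20, and connexins higher for 3 and lower for 3 of 11. At least 2-fold differences were called in 8 members, against 9.7% of all clusters: CLDN1, GJB5 and GJA5 were higher, and CDH2, CDH3, CDH6, CDH7 and CLDN10 lower. No overlap of values between theca and all laser-captured arrays was seen for 6 members (CDH3, CDH6, CDH20, CLDN1, GJA5 and, on its brighter cluster, GJB5), against 10% of all clusters. In single compartments, theca differed from tunica albuginea in 15 members (5 higher, 10 lower; 34.4% of all clusters), from stroma close to follicles in 16 (6 higher, 10 lower; 31.1% of all clusters) and from interstitial stroma in 14 (6 higher, 8 lower; 28.9% of all clusters). These 3 comparisons share the theca arrays. The members called in all of them were CDH3, CDH6, CDH20, CDH22, CLDN1, GJA5, GJA10 and GJB5. At least 2-fold differences were called in 6 members against tunica albuginea (10.9% of all clusters), 8 against stroma close to follicles (10.2% of all clusters) and 6 against interstitial stroma (9.55% of all clusters). Without the fold minimum the share of members called was near or below that of all clusters in each comparison with theca; with it, the share was 15.1% against the laser-captured mean and against stroma close to follicles, and 11.3% against each of the other 2 compartments. A test of any difference among the 4 compartments called 21 members (39.6%), 11 cadherins, 3 claudins and 7 connexins, against 36.4% of all clusters.

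**Figure D2:**
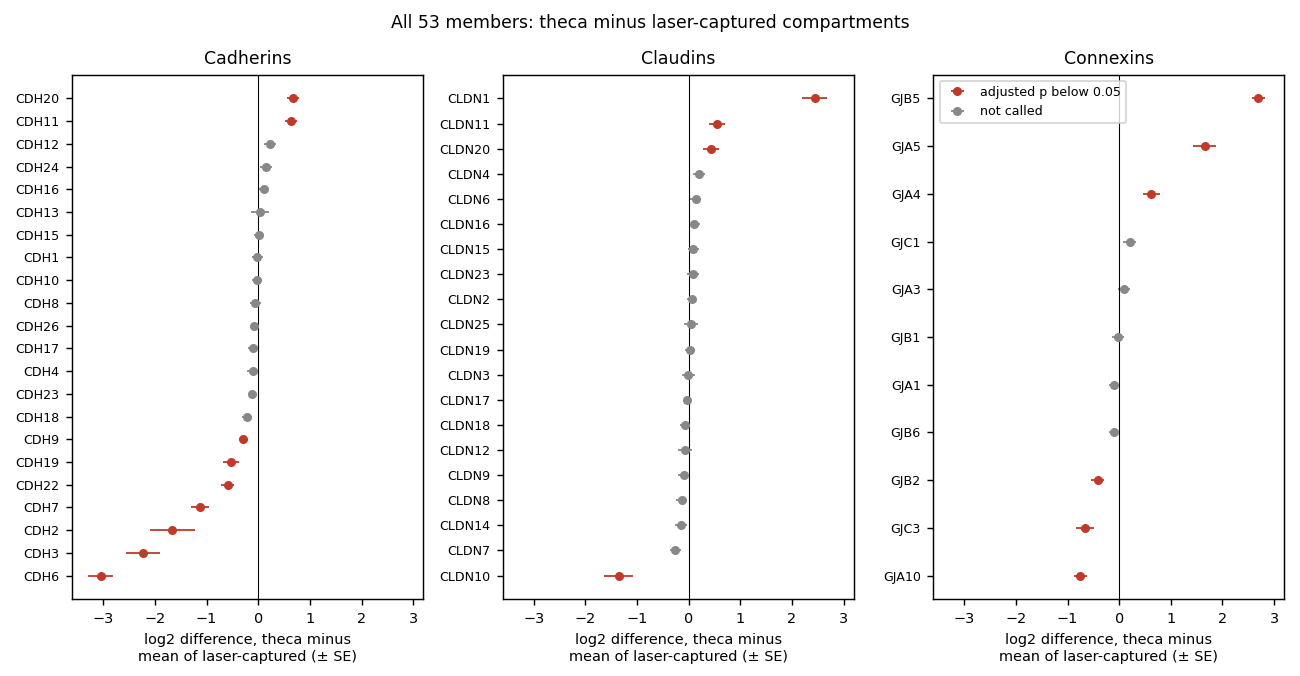
Log2 difference of theca minus the mean of the 3 laser-captured compartments (x axis, bars are the moderated SE of the fit over 18 arrays) for every cadherin, claudin and connexin (rows), with members at adjusted p below 0.05 in red. The differences range from -3.05 for CDH6 to 2.69 for the brighter GJB5 cluster, and most claudins lie near 0.

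CDH6, a type II cadherin known from kidney development, was the member with the lowest difference in theca. Its values were 2.7 (lowest), 3.35 (median) and 4.2 (highest) in theca, against 6.8, 6.2, 5.1 and 5.6 in tunica albuginea, 6.7, 6.6, 7.3 and 6.8 in stroma close to follicles and 6.4, 6.9, 6.8 and 6.4 in interstitial stroma. Every theca array lay below every laser-captured array, and theca was at or below the array median in all but 1 of its values. The difference from the laser-captured mean was -3.05 ± 0.24 (SE, limma adjusted p = 1.98e-08), and it was -2.51, -3.43 and -3.21 against tunica albuginea, stroma close to follicles and interstitial stroma.

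CDH3, the placental or P-cadherin, a type I cadherin of basal epithelial cells, had theca values of 4.2, 5.0 and 5.8 (lowest, median and highest). It stood at 8.0, 6.4, 6.5 and 6.0 in tunica albuginea, 8.4, 8.3, 6.8 and 7.6 in stroma close to follicles and 8.0, 7.3, 7.0 and 6.2 in interstitial stroma. Theca was lower by -2.23 ± 0.33 log2 units than the laser-captured mean (adjusted p = 3.03e-05), with no overlap, and CDH3 passed against each compartment. The laser-captured compartments overlapped with each other, and no difference among them passed the test. CDH1, the E-cadherin and its neighbour in the RefSeq gene table, showed no difference of that size (theca minus laser-captured mean -0.02 ± 0.10, adjusted p = 0.912).

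CDH2, the neural or N-cadherin, which is also the cadherin of granulosa cells, varied more among theca arrays than any of the other members with a value in every array given here. Theca replicates 1 to 6 read 5.8, 3.3, 5.0, 3.2, 3.1 and 6.3, against 7.3, 6.2, 6.9 and 6.5 in tunica albuginea, 5.7, 6.5, 6.1 and 6.3 in stroma close to follicles and 6.2, 4.9, 6.2 and 4.6 in interstitial stroma. Theca replicates 1, 3 and 6 reached into the range of the laser-captured arrays, while replicates 2, 4 and 5 lay below all of them. The mean was 4.45 ± 1.43 in theca (SD, n = 6), 6.73 ± 0.48 in tunica albuginea, 6.15 ± 0.34 in stroma close to follicles and 5.48 ± 0.85 in interstitial stroma (SD, n = 4 each). Theca fell below the laser-captured mean by -1.67 ± 0.44 (limma adjusted p = 0.00505) and below tunica albuginea by -2.28 ± 0.57 (adjusted p = 0.0044). Against interstitial stroma it did not pass (-1.03 ± 0.57, adjusted p = 0.191). Against stroma close to follicles it passed (-1.70 ± 0.57, adjusted p = 0.0288), but not without theca replicate 2, 4 or 5 or without stroma close to follicles replicate 2, 3 or 4 (adjusted p up to 0.0724). That call was also lost with the arrays of these 2 compartments alone (limma adjusted p = 0.0601).

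The mean of the 10 granulosa markers listed was 6.03, 5.44, 5.73, 5.55, 5.46 and 5.75 in theca replicates 1 to 6, against 4.42 to 4.68 in the laser-captured arrays. In theca 7 of the 10 were higher and 2 lower, against 19.6% and 22.2% of all clusters. Like CDH2, the mean of the 10 markers had its 3 highest theca values in replicates 1, 3 and 6. So had the follicle-stimulating hormone receptor gene FSHR (5.2, 3.4, 4.7, 4.1, 3.5 and 5.4 in replicates 1 to 6), which is 1 of the 10 and so enters that mean. Single markers differed in this: the aromatase gene CYP19A1 read 3.8, 2.8, 2.7, 3.2, 2.8 and 2.6 and AMH 4.4, 4.6, 4.6, 4.2, 4.4 and 4.1. INHA read 7.8, 7.1, 7.6, 7.6, 7.4 and 7.6, with replicate 4 level with replicates 3 and 6. CDH6, which is no granulosa marker here, read 4.2, 2.9, 3.5, 2.7, 3.2 and 4.0, with its 3 highest values on the same arrays as CDH2. Among them CYP19A1 averaged 2.98 in theca and FOXL2 2.85, both below the array median. The part of granulosa cells in the CDH2 values was not tested.

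CDH11 went the other way among the bright cadherins. Theca had 8.8, 8.85 and 9.3 (lowest, median and highest), tunica albuginea 8.9, 8.7, 8.7 and 8.6, stroma close to follicles 8.3, 8.1, 7.8 and 8.3 and interstitial stroma 7.9, 8.3, 8.3 and 8.3. Theca lay above every array of both stromas and overlapped with tunica albuginea. It was higher than stroma close to follicles by 0.86 ± 0.14 (adjusted p = 0.000173) and than interstitial stroma by 0.78 ± 0.14 (adjusted p = 0.000441), and did not pass against tunica albuginea (0.26 ± 0.14, adjusted p = 0.177).

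CLDN1, a barrier-forming claudin best known from the epidermis, was the claudin with the largest difference. Its theca values were 6.0, 6.95 and 7.2 (lowest, median and highest), against 3.7, 4.9, 5.5 and 4.5 in tunica albuginea, 4.4, 3.6, 4.6 and 3.5 in stroma close to follicles and 4.4, 4.0, 4.2 and 4.2 in interstitial stroma. No theca array overlapped with the rest. The difference from the laser-captured mean was 2.44 ± 0.24 (adjusted p = 3.49e-07), and it was 2.08 ± 0.32 against tunica albuginea, 2.71 ± 0.32 against stroma close to follicles and 2.53 ± 0.32 against interstitial stroma. CLDN11, known from myelin and from the tight junctions of Sertoli cells in the testis, had 4.2, 4.7 and 5.2 in theca (lowest, median and highest), 4.2, 4.5, 4.2 and 4.3 in tunica albuginea, 3.7, 3.8, 4.6 and 3.9 in stroma close to follicles and 4.0, 4.4, 3.9 and 4.5 in interstitial stroma. The values overlapped with those of every other compartment. CLDN11 was higher in theca than in the laser-captured mean by 0.55 ± 0.15 (adjusted p = 0.00791), and with the replicate numbers as a block it did not pass (adjusted p = 0.085). Its difference from stroma close to follicles (0.72 ± 0.20, adjusted p = 0.0104) was lost in the same way (adjusted p = 0.0622). A further 15 claudins were called in none of the 7 comparisons, and all their compartment means lay between 2.45 and 4.23. Among the claudins known from epithelia, CLDN3 averaged 4.00 to 4.13 by compartment, CLDN4 3.70 to 3.98 and CLDN7 2.83 to 3.23, so that none lay clearly above the array median. The mean of 11 ovarian surface epithelium markers was 3.36 to 3.68 in theca, 3.26 to 3.67 in tunica albuginea, 3.49 to 3.73 in stroma close to follicles and 3.33 to 3.39 in interstitial stroma. Theca was higher for 3 of these 11 markers and lower for 3, against 19.6% and 22.2% of all clusters.

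**Figure D3:**
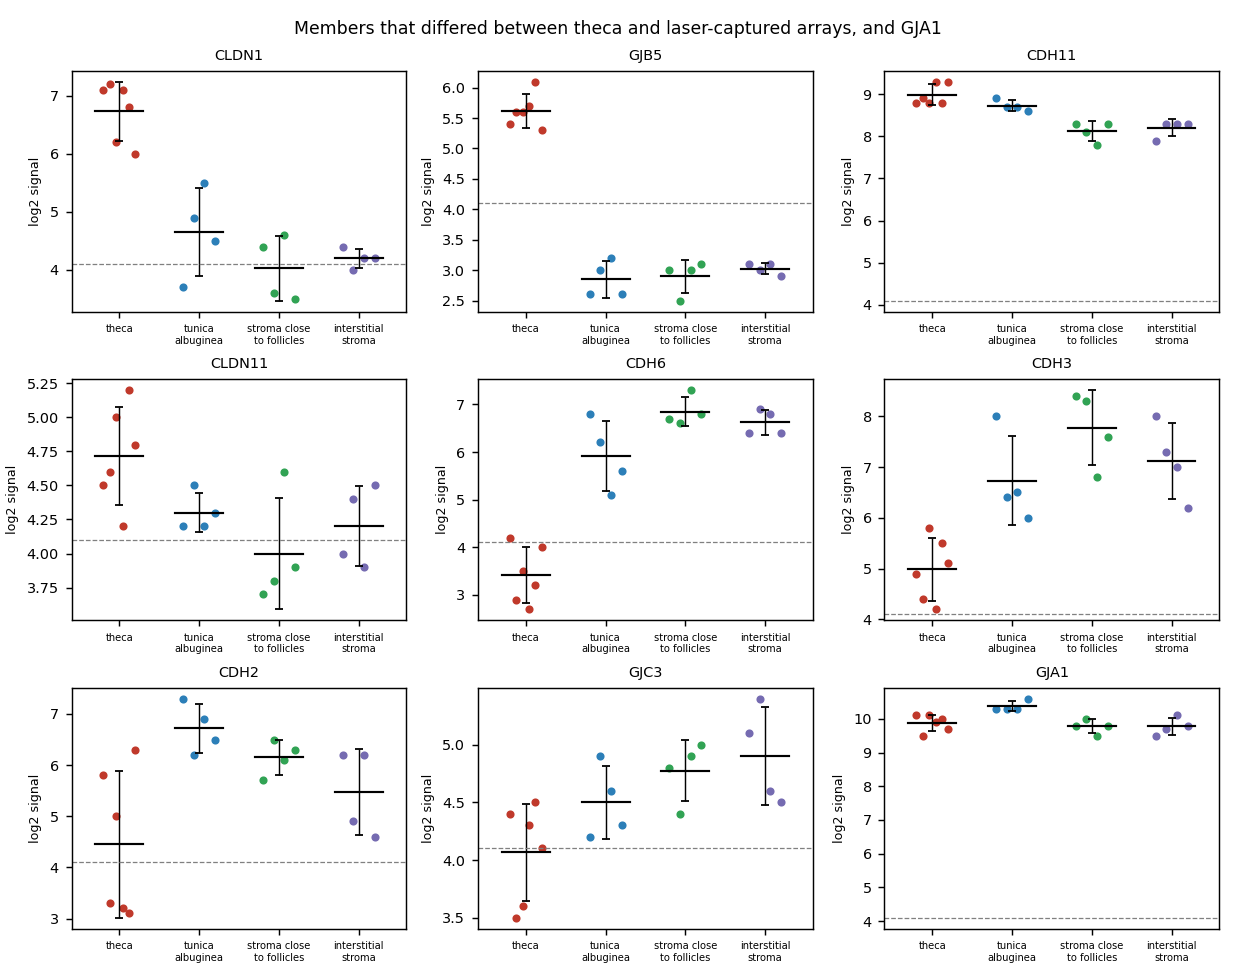
Log2 signal (y axis, scale differs by panel) of 9 members in every array (points), with the mean (line) and SD (bar) of theca (n = 6), tunica albuginea, stroma close to follicles and interstitial stroma (n = 4 each); the dashed line is the array median of 4.1. GJB5 is shown by its brighter cluster. CLDN1 and this GJB5 cluster lie higher and CDH6 and CDH3 lower in every theca array than in any other array, and CDH2 spreads from 3.1 to 6.3 in theca.

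GJB5, a beta connexin known from skin and, in mice, from placental trophoblast, was the single member with more than 1 cluster on the array. It is represented by the brighter cluster over all arrays, which is the brighter one in theca but the dimmer one in the laser-captured compartments, so that the choice favours a difference. On that cluster theca had 5.3, 5.6 and 6.1 (lowest, median and highest), against 2.6, 3.0, 3.2 and 2.6 in tunica albuginea, 3.0, 2.5, 3.0 and 3.1 in stroma close to follicles and 3.1, 3.0, 3.1 and 2.9 in interstitial stroma. The 3 laser-captured compartments lay below the array median throughout, at a level that background can give. Theca exceeded their mean by 2.69 ± 0.13 (adjusted p = 2.68e-11). The other cluster averaged 4.00 in theca against 3.48 to 3.53 in the laser-captured compartments, a difference of 0.51 ± 0.12 (adjusted p = 0.00255), with overlapping values. With the 2 clusters averaged the difference was 1.60 ± 0.10 (adjusted p = 7.42e-10), and it was 1.65, 1.62 and 1.53 against tunica albuginea, stroma close to follicles and interstitial stroma.

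GJA5 and GJA4, connexins of arterial and other endothelium (GJA4 also of the oocyte), were higher in theca. GJA5 values were 4.8, 5.25 and 5.7 in theca (lowest, median and highest), 2.6, 3.4, 2.3 and 3.0 in tunica albuginea, 4.7, 4.4, 3.1 and 3.7 in stroma close to follicles and 4.4, 4.2, 3.3 and 4.0 in interstitial stroma. Theca lay above all other arrays and tunica albuginea was the lowest compartment. GJA5 was higher in theca than in the laser-captured mean by 1.66 ± 0.22 (adjusted p = 1.10e-05) and than in tunica albuginea by 2.43 ± 0.29 (adjusted p = 4.87e-06). GJA4 had 4.1, 4.55 and 4.9 in theca, 3.6, 3.9, 3.1 and 3.6 in tunica albuginea, 3.9, 4.6, 4.1 and 3.7 in stroma close to follicles and 4.5, 4.3, 3.6 and 4.0 in interstitial stroma. Its difference was 0.63 ± 0.16 from the laser-captured mean (adjusted p = 0.00504) and 0.98 ± 0.21 from tunica albuginea (adjusted p = 0.0015), and it did not pass against either stroma (adjusted p = 0.112 and 0.138).

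The mean of the endothelial markers was also highest in theca and lowest in tunica albuginea. Of 12 listed, 11 were higher in theca than in the laser-captured mean and none lower, against 19.6% and 22.2% of all clusters. The mean of the 12 per array was 5.95 to 6.28 in theca, 3.89 to 4.22 in tunica albuginea, 4.17 to 4.69 in stroma close to follicles and 4.21 to 5.35 in interstitial stroma. All 12 averaged at or above the array median in theca, and 4 of them in tunica albuginea. EMCN, CD34, PTPRB and ESAM had their lowest mean in stroma close to follicles, not in tunica albuginea. CLDN5 was the marker that did not pass (5.32 in theca, 4.18 in tunica albuginea, 5.05 in stroma close to follicles and 5.80 in interstitial stroma). The part of vessel content in GJA4 and GJA5 was not tested.

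**Figure D4:**
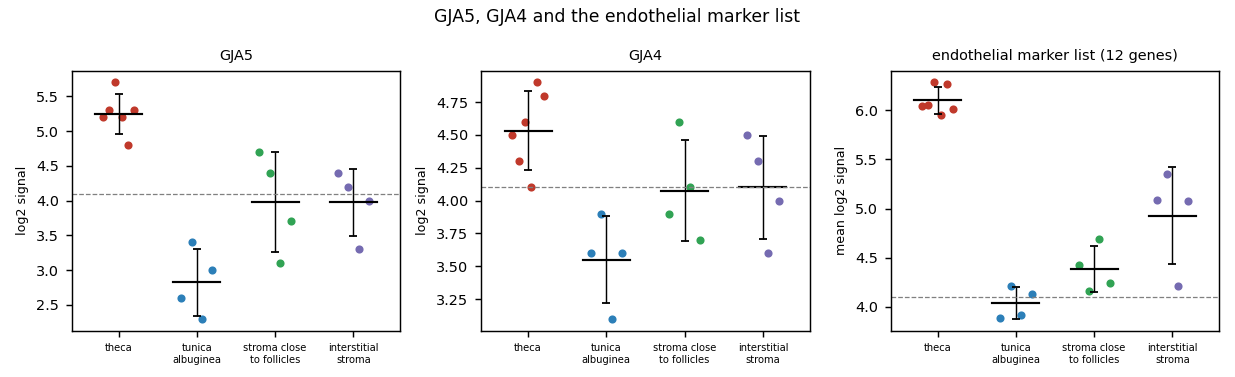
Log2 signal of GJA5 and GJA4 and the mean log2 signal of 12 endothelial markers (y axes, scale differs by panel) in every array, with mean (line) and SD (bar) for theca (n = 6) and the 3 laser-captured compartments (n = 4 each); the dashed line is the array median. In all 3 panels theca has the highest mean and tunica albuginea the lowest.

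GJA1, the brightest member, had compartment means between 9.78 and 10.38. Its theca values were 9.5, 9.95 and 10.1 (lowest, median and highest), against 10.3, 10.3, 10.3 and 10.6 in tunica albuginea, 9.8, 10.0, 9.5 and 9.8 in stroma close to follicles and 9.5, 9.7, 10.1 and 9.8 in interstitial stroma. Tunica albuginea lay above every other array. Theca did not pass against the laser-captured mean (-0.09 ± 0.11, adjusted p = 0.547) and was lower than tunica albuginea by -0.49 ± 0.15 (adjusted p = 0.0137), a call lost without tunica albuginea replicate 4 (adjusted p = 0.054) and with the replicate numbers as a block (adjusted p = 0.06). GJC1, a connexin of vascular smooth muscle, averaged 6.60 in theca, 6.45 in tunica albuginea, 6.48 in stroma close to follicles and 6.28 in interstitial stroma and was called in no comparison. GJC3, which in mice is a connexin of myelinating glia, had 3.5, 4.2 and 4.5 in theca (lowest, median and highest), 4.2, 4.9, 4.6 and 4.3 in tunica albuginea, 4.8, 4.4, 4.9 and 5.0 in stroma close to follicles and 5.1, 5.4, 4.6 and 4.5 in interstitial stroma. The groups overlapped, and theca had the lowest mean. GJC3 was lower in theca than in the laser-captured mean by -0.66 ± 0.17 (adjusted p = 0.00538) and than in interstitial stroma by -0.83 ± 0.22 (adjusted p = 0.00929). Against stroma close to follicles its call (-0.71 ± 0.22, adjusted p = 0.0229) was lost without theca replicate 2 or 3 or without stroma close to follicles replicate 1, 3 or 4 (adjusted p up to 0.0707).

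CDH7, a type II cadherin known from the nervous system, had its highest values in stroma close to follicles. It read 2.8, 2.9 and 3.1 in theca (lowest, median and highest), 3.4, 2.9, 3.0 and 3.0 in tunica albuginea, 5.3, 6.1, 4.5 and 5.3 in stroma close to follicles and 3.9, 4.1, 4.1 and 3.4 in interstitial stroma. Every array of stroma close to follicles lay above all other arrays, and theca and tunica albuginea were below the array median. CDH7 was lower in theca than in stroma close to follicles by -2.35 ± 0.22 (adjusted p = 3.38e-07) and than in interstitial stroma by -0.93 ± 0.22 (adjusted p = 0.00377), and lower in tunica albuginea than in stroma close to follicles by -2.23 ± 0.24 (adjusted p = 3.73e-05). It was also higher in stroma close to follicles than in interstitial stroma by 1.43 ± 0.24 (adjusted p = 0.0397), the sole member called in that comparison, in which 0.0336% of all clusters were called. That last call was lost when any 1 array was left out, other than interstitial stroma replicate 3, stroma close to follicles replicate 3 or tunica albuginea replicate 1. The difference stayed between 1.16 and 1.69 over these 18 fits, with adjusted p up to 0.156. It was also lost with the replicate block (adjusted p = 0.16), with the laser-captured arrays alone (adjusted p = 0.209) and with these 2 compartments alone (adjusted p = 0.43).

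CLDN10, which forms ion-selective pores in tight junctions of kidney and glands, followed the same order of compartments. Theca had 2.5, 2.55 and 2.7 (lowest, median and highest), tunica albuginea 3.3, 2.9, 3.1 and 2.7, stroma close to follicles 5.6, 5.4, 3.9 and 4.6 and interstitial stroma 4.6, 5.0, 3.2 and 2.8. Interstitial stroma split, with replicates 1 and 2 in the range of stroma close to follicles and replicates 3 and 4 in that of tunica albuginea. CLDN10 was lower in theca than in stroma close to follicles by -2.31 ± 0.36 (adjusted p = 0.000105), and lower in tunica albuginea than in stroma close to follicles by -1.88 ± 0.40 (adjusted p = 0.0115; 0.0556 with the laser-captured arrays alone). Its difference between theca and interstitial stroma (-1.33 ± 0.36, adjusted p = 0.01) was lost without interstitial stroma replicate 2 (-0.97, adjusted p = 0.0526). The difference between stroma close to follicles and interstitial stroma did not pass (means of 4.88 and 3.90, adjusted p = 0.515). GJB2, a beta connexin of the inner ear and skin, had its highest mean in the same compartment, though below the array median throughout (2.60 in theca, 2.80 in tunica albuginea, 3.38 in stroma close to follicles and 2.88 in interstitial stroma). It was lower in theca than in stroma close to follicles by -0.78 ± 0.16 (adjusted p = 0.00123).

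The oocyte list as a whole, the germ cell gene DAZL and the epithelial adhesion gene EPCAM had the same order of compartments. The list of 11 surface epithelium markers did not. Its mean was highest in stroma close to follicles (3.56) but lowest in interstitial stroma (3.35). Of these 11 markers, 1 was called higher in stroma close to follicles than in interstitial stroma. Also 1 of the 11 was called lower in tunica albuginea than in stroma close to follicles. The mean of 11 measured oocyte markers was 3.24 to 3.66 in theca, 3.51 to 3.69 in tunica albuginea, 4.12 to 5.28 in stroma close to follicles and 4.00 to 4.26 in interstitial stroma. In stroma close to follicles replicates 1 to 4 it was 5.07, 5.28, 4.12 and 4.28, and replicate 3, the lowest, was also the lowest in CDH7 and CLDN10. GJB2 read 3.8, 3.5, 3.1 and 3.1, with replicates 3 and 4 tied. Replicate 3 was the lowest of the 4 in other members too: CDH3 (8.4, 8.3, 6.8 and 7.6), CDH11, GJA1, GJA5 and GJC1. In CDH6 (6.7, 6.6, 7.3 and 6.8), CLDN1 and CLDN11 it was the highest. DAZL read 7.6, 8.0, 5.9 and 6.8 in these arrays, and EPCAM 6.2, 6.3, 5.4 and 5.6. Of the oocyte markers, 8 were lower in tunica albuginea than in stroma close to follicles, 8 were lower in theca than in the laser-captured mean, and none was called between the 2 stromas (adjusted p of 0.221 or more). The shares of all clusters were, in turn, 1.95%, 22.2% and 0.0336%. ZP4, DDX4, GDF9, NLRP5 and ZAR1 averaged below the array median in stroma close to follicles. EPCAM was lower in tunica albuginea than in stroma close to follicles by -2.58 ± 0.22 (adjusted p = 5.99e-06), and higher in stroma close to follicles than in interstitial stroma by 1.48 ± 0.22 (adjusted p = 0.0348). With these 2 stromas alone, or with the laser-captured arrays alone, none of the 26773 clusters was called between the stromas, EPCAM included. The part of small follicles inside the laser-cut tissue in CDH7, CLDN10 and GJB2 was not tested.

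**Figure D5:**
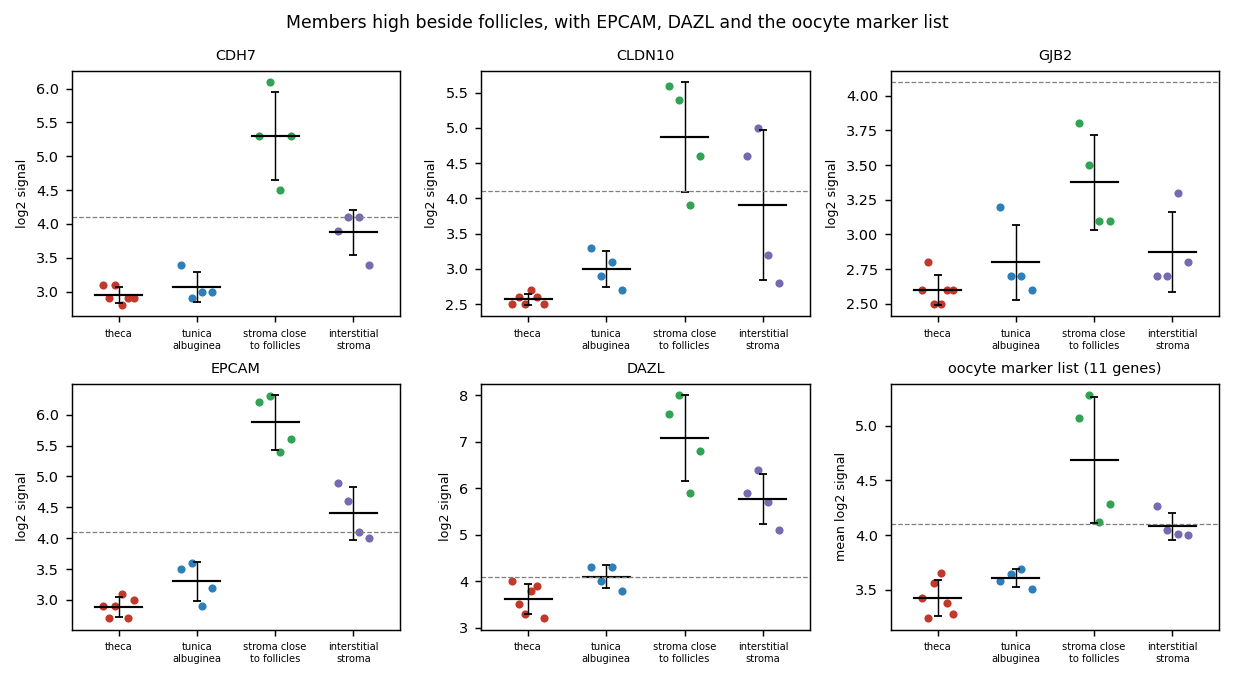
Log2 signal of CDH7, CLDN10, GJB2, EPCAM and DAZL and the mean log2 signal of 11 oocyte markers (y axes, scale differs by panel) in every array, with mean (line) and SD (bar) for theca (n = 6), tunica albuginea, stroma close to follicles and interstitial stroma (n = 4 each); the dashed line is the array median. In each panel stroma close to follicles has the highest mean and theca the lowest.

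Between tunica albuginea and stroma close to follicles, 6 of 53 members (11.3%) were called, against 3.8% of all clusters, 3 higher and 3 lower in tunica albuginea (1.85% and 1.95% of all clusters). At least 2-fold were CDH7, CLDN10 and GJA5, 3 members against 1.86% of all clusters. Besides CDH7 and CLDN10, GJA5 was lower by -1.15 ± 0.32 with adjusted p = 0.049993, at the edge of the threshold. CDH11 (0.60 ± 0.16, adjusted p = 0.0388), GJA1 (0.60 ± 0.16, adjusted p = 0.0421) and CDH17 (0.68 ± 0.14, adjusted p = 0.0102) were higher. The calls of GJA5, GJA1 and CDH11 were lost without 15, 11 and 6 of the 18 arrays, each in turn, among them both tunica albuginea replicate 3 and replicate 4, and without either of these 2 arrays 3 members were called. Without tunica albuginea replicate 3 or 4, 2.34% and 2.7% of all clusters were called. With the arrays of these 2 compartments alone, or with the laser-captured arrays alone, 2 members were called, against 1.62% and 2.77% of all clusters.

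Between tunica albuginea and interstitial stroma 1 member, CDH17, was called, higher in tunica albuginea by 0.70 ± 0.14 (adjusted p = 0.0145), against 1.52% of all clusters called and 0.945% called higher. No member was called with at least a 2-fold difference here, against 0.87% of all clusters. CDH17, the liver-intestine cadherin, averaged 3.17 in theca, 3.73 in tunica albuginea, 3.05 in stroma close to follicles and 3.03 in interstitial stroma, all below the array median. At an unadjusted p below 0.05 there were 11 members (20.8%) in this comparison, against 12.8% of all clusters. With the arrays of the 2 compared compartments alone CDH17 was not called here (adjusted p = 0.0848) or between tunica albuginea and stroma close to follicles (adjusted p = 0.0944). Without interstitial stroma replicate 3 or stroma close to follicles replicate 3 there were 3 members called between tunica albuginea and interstitial stroma (1.78% and 1.67% of all clusters). Without theca replicate 2 or stroma close to follicles replicate 2 there were 2 (1.59% and 1.58% of all clusters).

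Of the 33 members below the array median in every compartment, 7 (21.2%) were called between theca and the laser-captured mean, against 25.1% of all clusters below the median in every compartment, and their differences were at most 0.75 log2 units in size. CDH20 (3.15 in theca against 2.45 to 2.53 in the laser-captured compartments) and CLDN20 (4.03 in theca against 3.58 to 3.65) were higher. CDH9, CDH19, CDH22, GJB2 and GJA10 were lower, with GJA10 at 2.47 in theca against 3.10 to 3.40. By class, with 41.9% of all clusters called, type II classical cadherins were higher in theca for 2 and lower for 5 of 12, type I classical cadherins lower for 2 of 5, and none of 5 other cadherins, among them CDH13, CDH17 and CDH23, was called in this comparison (adjusted p of 0.293 or more). CLDN20 lost its call without any 1 of 7 arrays (theca replicates 1, 2, 3 and 6, interstitial stroma replicate 2, and tunica albuginea replicates 2 and 4), and under the replicate block CLDN20 and CDH9 lost it (adjusted p = 0.0758 and 0.0769).

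Partners of these proteins inside and beside the junction were also read, from lists chosen with earlier results of these data known. Of 9 catenins and relatives, 1 was higher and 2 lower in theca than in the laser-captured mean (median difference 0.20; 41.9% of all clusters called). CTNNB1, the beta-catenin that binds cadherin tails and serves WNT signalling, was higher (8.52 in theca against 7.63 to 7.75 in the laser-captured compartments, 0.85 ± 0.08, adjusted p = 1.05e-07). JUP, or plakoglobin, was lower by -0.60 ± 0.10 (adjusted p = 0.000145) and CTNND2, a delta-catenin of neurons, by -1.19 ± 0.16 (adjusted p = 7.97e-06). CTNNA1 and CTNND1, the catenins that link to actin and stabilise cadherins, did not pass, with differences of 0.02 ± 0.13 and -0.03 ± 0.10.

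Of 21 measured tight junction partners, 5 were higher and 6 lower in theca (median -0.13), against 19.6% and 22.2% of all clusters. OCLN, the membrane protein occludin, averaged 5.5 in theca against 3.08 in tunica albuginea, 4.1 in stroma close to follicles and 3.88 in interstitial stroma, 1.82 ± 0.23 above their mean (adjusted p = 4.95e-06). MARVELD2, the related tricellulin, was higher by 0.71 ± 0.16, the junctional adhesion gene F11R by 1.16 ± 0.15, and the polarity scaffold PALS1 by 0.91 ± 0.13. ESAM, an endothelial adhesion gene, was the fifth. The scaffold MAGI2 (-1.38 ± 0.11), the claudin-like TMEM47 (-1.23 ± 0.10) and the adhesion gene JAM2 (-1.11 ± 0.14) fell furthest. F11R was also lower in tunica albuginea than in interstitial stroma (-1.43 ± 0.21, adjusted p = 0.00156), and the polarity gene PARD6B lower in tunica albuginea than in stroma close to follicles (-1.0 ± 0.17, adjusted p = 0.00223; 3.03 against 4.03, both below the array median). TJP1, the scaffold ZO protein of tight junctions, did not pass (-0.19 ± 0.08, adjusted p = 0.0671).

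Transcription factors that repress or induce cadherins were higher for 2 and lower for 4 of 9 in theca (median -0.35), against 19.6% and 22.2% of all clusters. ZEB1 was lower by -1.63 ± 0.11 (adjusted p = 3.66e-09), TWIST2 by -0.84 ± 0.11, SNAI2 by -0.87 ± 0.10 and TCF4 by -0.38 ± 0.10, while ZEB2 (0.96 ± 0.17) and SNAI1 (0.56 ± 0.14, below the array median) were higher.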

How the data were processed

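RNA of 18 ovarian samples was hybridised to single-colour arrays after amplification with the same picogram-scale whole-transcriptome kit, per the labels. The deposited values are log2 signals per transcript cluster, made with RMA and Partek 6.5, per the submitters' processing notes; the array files before normalization were not used here. Groups came from the sample titles. The members and lists were chosen with earlier results of these data known. Gene names came from the platform's probe-to-gene table, and the brightest cluster stood for a gene. Identifiers of 51 of the 53 members were found in the RefSeq gene table (assembly ARS-UCD2.0), used for names and neighbours, and no symbol changed.

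limma 3.58.1 in R 4.3.3 was fitted to all 18 arrays, with 1 mean per compartment, 1 shared spread and two-sided p-values; it was tested on simulated data. The 6 pairs of compartments were compared, theca was set against the average of the other 3, and an F test asked for any difference among the 4. SE stands for limma's moderated standard error. Members are described array by array (for theca mostly as lowest, median and highest) if they were called in any of these tests and a compartment mean reached 4.1 (13 members, CLDN1, CDH7 and CDH2 among them). Same-numbered replicates were not treated as pairs, since, for no 2 compartments, did all same-numbered deviations correlate above 0.1. Interstitial stroma and tunica albuginea came nearest, with correlations of 0.095, 0.097, 0.129 and 0.145 in replicates 1 to 4. In all other pairs of compartments the correlations lay between -0.048 and 0.076. Whether same-numbered pools of interstitial stroma and tunica albuginea share animals is not stated. Replicates held identical values at 9.12% to 14% of clusters, and none was treated as a repeat. The number of arrays limits the precision. No sequences are given.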

Additional observations from a re-analysis of the deposited data

Results flagged for a closer look

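A value lay apart from the others of its group in 3 of 52 sets of arrays looked at (13 members in each of 4 compartments), all 3 of them sets of 4 arrays, and chance flags about 1 in 20 sets. GJB5 read 2.5 in stroma close to follicles replicate 2, against 3.0 to 3.1 in the others. CDH11 read 7.9 in interstitial stroma replicate 1, with 8.3 in each of the others. GJA1 read 10.6 in tunica albuginea replicate 4, with 10.3 in each of the others. The last 2 sets hold tied values, which steps of 0.1 make likely.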

How the results depend on the processing

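None of the 72 called differences of single members changed sign under any alternative, and 50 stayed called under each one run for them except a 2-fold minimum, which ended 23 of these calls. Of the 50, 18 belong to members that the filter on dim clusters left out of the test, so that the filter says nothing of them. Leaving out each array in turn, the members called numbered 18 to 20 for theca against the laser-captured mean, 13 to 17 against tunica albuginea, 14 to 17 against stroma close to follicles, 12 to 15 against interstitial stroma, 17 to 21 by the F test, 3 to 6 for tunica albuginea against stroma close to follicles, 1 to 3 for tunica albuginea against interstitial stroma and 0 to 1 for stroma close to follicles against interstitial stroma. Of all clusters, the shares called over these fits were, in the same order, 37.5% to 41.6%, 30.0% to 34.5%, 26.4% to 31.6% and 24.3% to 29.6%. For the F test and the later comparisons they were 31.7% to 36.6%, 2.34% to 3.82%, 0.818% to 1.78% and 0% to 0.568%. With the replicate block the counts of members were 16, 12, 14, 13, 16, 4, 1 and 0, in place of 19, 15, 16, 14, 21, 6, 1 and 1. Of all clusters 34.5%, 28.8%, 26.2%, 24.5%, 28.3%, 3.24%, 1.24% and 0.0187% were called with the block. These stood in place of 41.9%, 34.4%, 31.1%, 28.9%, 36.4%, 3.8%, 1.52% and 0.0336%. Pairing by replicate number did not meet the limit set for it in any 2 compartments, and interstitial stroma and tunica albuginea came nearest. At least 2-fold, the counts of members were 8, 6, 8, 6, 8, 3, 0 and 1. The shares of all clusters, not counted for the F test, were 9.7%, 10.9%, 10.2%, 9.55%, 1.86%, 0.87% and 0.0336%. Without the 40% dimmest clusters, which left 22 of 53 members in the test, the counts of members were 12, 9, 10, 9, 12, 3, 0 and 0. Of the clusters kept, 51.8%, 43.7%, 41.4%, 39.8%, 47.8%, 5.43%, 2.63% and 0.0187% were called. With the compared compartments alone, the last 3 counts were 2, 0 and 0, and with the laser-captured arrays alone 2, 1 and 0. The shares of all clusters were 1.62%, 0.762% and 0% in the former fits and 2.77%, 1.03% and 0% in the latter. Array weights gave 3 for tunica albuginea against stroma close to follicles (3.28% of all clusters). A trended, robust prior gave 2 for tunica albuginea against interstitial stroma (1.53% of all clusters). Why counts among laser-captured compartments moved was not tested. Averaging the GJB5 clusters changed no count, but moved its difference between theca and the laser-captured mean to 1.60, in place of 2.69, which is below that of GJA5 (1.66). A fit to the compared compartments alone was not run for theca against the laser-captured mean, which already uses all arrays, nor for the F test. The dim level of most members limits what these arrays can show about them.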

Other observations

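Desmosome genes were mostly dim: of 13, 2 averaged above the array median in theca, and 2 were higher and 1 lower there than in the laser-captured mean (median -0.07; 41.9% of all clusters called). PKP4, an armadillo-repeat protein of junctions, averaged 7.28 in theca against 5.88 in tunica albuginea, 6.08 in stroma close to follicles and 5.78 in interstitial stroma (1.38 ± 0.13, limma adjusted p = 2.11e-07), and the desmosomal cadherin DSC2 6.03 against 5.08, 4.90 and 5.08 (1.02 ± 0.16, adjusted p = 4.13e-05). DSP, or desmoplakin, was lower in tunica albuginea than in stroma close to follicles (2.73 against 3.53, -0.80 ± 0.18, limma adjusted p = 0.0154). All its values lay below the array median. It read 3.7, 3.9, 2.9 and 3.6 in the arrays of stroma close to follicles, where replicate 3 was the lowest. PARD6B read 4.5, 4.0, 4.0 and 3.6 in the same arrays, with replicate 4 the lowest.

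Of 6 measured nectins and relatives, which hold cells together beside cadherins, PVR (0.67 ± 0.22, adjusted p = 0.0208) and NECTIN3 (0.26 ± 0.10, adjusted p = 0.0398) were higher in theca and none was lower. Among all clusters 19.6% were higher and 22.2% lower. None of 6 pannexins and GJD connexins was called in theca against the laser-captured mean (adjusted p of 0.0703 or more), and PANX1 was the single one with a compartment mean above the array median (5.2 in theca, 5.4 in tunica albuginea, 5.43 in stroma close to follicles and 5.28 in interstitial stroma).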
